A study of Saccharomyces cerevisiae with 12 samples.

Results

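Ribosome biogenesis factors build ribosomes without being part of the finished particle. The 56 genes described here were listed by open reading frame name, with earlier results of these data known. All of them have a probe among the 5974 probes of the arrays. They are proteins of the small nucleolar ribonucleoproteins (snoRNPs), factors of the small subunit processome, and assembly factors of the large ribosomal subunit of the budding yeast Saccharomyces cerevisiae.

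In the nucleolus, RNA polymerase I makes 1 long precursor of the ribosomal RNAs, and snoRNPs guide the modification of its nucleotides. The small subunit processome, built around the U3 snoRNA, folds and cleaves the part that becomes the small subunit, while RNA helicases, GTPases and scaffold proteins fold the part that becomes the large subunit. In yeast the genes for these factors are known to be expressed together, at high levels in fast growth and at lower levels under stress.

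The samples were cultures of strain BY4741 from the EUROSCARF collection, labelled wild type, and of cells in the same background labelled ixr1 null. The Ixr1 protein binds DNA through its HMG boxes and is known for its part in the low-oxygen response of yeast. The 12 arrays formed 6 groups of 2, lettered A and B: ixr1 null and wild type after a shift to nitrogen, ixr1 null and wild type in overnight hypoxia, and ixr1 null and wild type in air. All groups shared synthetic complete medium with 2% glucose at 30 C. The shift cultures grew in air to an OD600 of 0.8 and then had nitrogen bubbled through them for 3 hours. The hypoxia cultures stayed overnight in anaerobic jars at under 1% oxygen, with ergosterol (20 mg/l) and Tween 80 (0.5%) added to the medium. The labels name these supplements for the jars alone, so low oxygen and the supplements cannot be told apart in hypoxia against air. An OD600 is given for the shift cultures alone, so growth stage and time in culture cannot be told apart from low oxygen either. Radioactively labelled cDNA from total RNA was hybridised to the arrays, so each value is a share of the labelled RNA and not an amount per cell, and less of a transcript per cell cannot be told apart from more of all others.

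Values below are normalized intensities on a linear scale on which an array averages close to 1. Differences are log2 differences over 2 arrays in each group. Their SE is from limma, which pools the spread of each gene over the 6 groups. Zeros, which were treated as missing in the tests, made up 1.16% to 14% of the probes on 10 of the arrays. They made up 58.4% on ixr1 null shift array A and 30.1% on array B. The rank correlation of replicate arrays over all probes was 0.590 between the shift arrays labelled ixr1 null and 0.692 between those of the wild type, and it was 0.830 to 0.917 in the other groups. Low-oxygen marker genes were mixed on the hypoxia arrays. In both genotypes DAN1, TIR2 and AAC3 were higher on both hypoxia arrays than on both air arrays. TIR1 and TIR4 were lower, and the groups overlapped for ANB1. DAN1 read 1.36 and 3.69 in wild type hypoxia, against 0.0538 and 0.113 in wild type air. TIR1 read 0.0343 and 0.0547 in wild type hypoxia, against 0.783 and 0.962 in wild type air. The markers also differed in which shift array was higher. The cell wall gene DAN1 was at 0 on the A arrays and read 6.26 (ixr1 null) and 2.48 (wild type) on B, while COX5B, a respiratory chain subunit used at low oxygen, read 5.37 (ixr1 null) and 3.44 (wild type) on A, and 2.38 and 1.30 on B. IXR1 itself was not lower on the arrays labelled ixr1 null: in air it read 9.69 and 8.80 there, against 9.69 and 7.29 on the wild type arrays. In hypoxia it read 0.524 and 1.006 on the arrays labelled ixr1 null, against 0.417 and 0.349 in wild type. Whether this probe lies in the deleted part is not known, and a probe outside it would check nothing. The genotype labels were thus not borne out and may be wrong, and each genotype comparison below is one of arrays by their labels.

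Ranked among all probes of its array, the typical ribosome biogenesis gene stood lower in wild type hypoxia than in wild type air. The median percentile of the 56 genes was 46.9 and 42.5 on the wild type hypoxia arrays, against 57.9 and 54.6 on the wild type air arrays. On the wild type shift arrays it was 29.0 on A and 44.9 on B. In the arrays labelled ixr1 null it was 43.3 and 46.2 in hypoxia, against 44.1 and 42.7 in air, so that the ranks of these 2 groups overlapped. On the ixr1 null shift arrays it was 29.2 on A, where 48 of the 56 genes were listed at 0 and shared the lowest rank, and 54.7 on B, where 9 were. A probe's rank depends on the probe as well as on its transcript, so these ranks are read between arrays only.

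**Figure D1:**
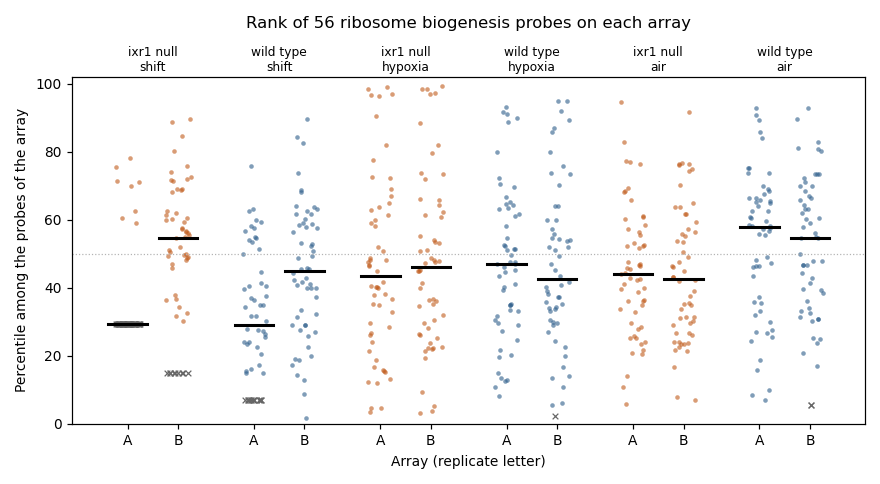
Percentile of each of the 56 ribosome biogenesis probes among all 5974 probes of the same array (vertical axis, 0 to 100), for the 12 arrays in their 6 groups (horizontal axis). Points are genes, crosses are genes listed at 0 and black bars are medians, which sit at 57.9 and 54.6 in wild type air and at 46.9 and 42.5 in wild type hypoxia.

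In wild type hypoxia against wild type air, most of the 56 genes were lower while a small set was far higher. Of 54 genes tested, UTP5, ENP1 and NSR1 rose and CBF5 and NOP2 fell, and the remaining 49 did not pass the limma test at an adjusted p of 0.05. These 5 of 54 compare with a background in which 11.9% of all 4969 tested probes were called (5.09% higher and 6.84% lower), so calls were no more frequent among these genes than over the array. The typical gene lay lower: the median log2 difference was -0.63, against 0.01 over all probes, and 37 of 54 genes lay below 0. Both hypoxia arrays were below both air arrays for 29 of the 56 genes (51.8%), where 26.6% of all probes were, and above both for 9 genes (16.1%), where 30.0% were. Relative to the median of all probes, the median of the 54 genes was -0.63 or -0.64 on every scaling tried. The deposited scale and the arrays centred on medians must give the same value here, so they are not separate checks. With the array letters as a block within each condition, 11 of the 54 genes passed, where 16.7% of all probes did.

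The 3 genes that rose were UTP5, ENP1 and NSR1. UTP5 (YDR398W), a subunit of the UtpA complex that is among the first to bind the ribosomal RNA precursor, read 2.01 and 3.55 in wild type hypoxia, against 0.240 and 0.215 in wild type air. The groups did not overlap, and UTP5 rose 11.7-fold (3.55 ± 0.65, adjusted p = 0.00585). ENP1 (YBR247C), a nuclear protein needed to mature the small subunit precursor, read 2.24 and 1.87 in wild type hypoxia, against 0.339 and 0.329 in wild type air. It rose 6.14-fold (2.62 ± 0.50, adjusted p = 0.00760), with replicate arrays closer to each other than the groups. NSR1 (YGR159C), the yeast relative of nucleolin, read 2.82 and 2.48 in wild type hypoxia, against 0.462 and 0.428 in wild type air, and rose 5.94-fold (2.57 ± 0.57, adjusted p = 0.0192). UTP5 lost its call on all 3 other scalings and without hypoxia array B (adjusted p up to 0.135). ENP1 and NSR1 lost theirs when any 1 of the 4 arrays was left out, and NSR1 also with zeros floored (adjusted p up to 0.0767 for ENP1 and 0.2365 for NSR1).

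The 2 genes that fell were CBF5 and NOP2. CBF5 (YLR175W), the pseudouridine synthase of the box H/ACA snoRNPs, read 0.0246 and 0.0353 in wild type hypoxia, against 0.483 and 0.256 in wild type air. It fell by 3.58 ± 0.71 on the log2 scale (adjusted p = 0.00894), and both hypoxia values lie under the 10th percentile of positive values (0.0589), so the size of its fall is poorly fixed. The call was lost under 3 of 14 alternatives, with adjusted p up to 0.151. NOP2 (YNL061W), a methyltransferase of the large subunit RNA, read 0.125 and 0.0790 in wild type hypoxia, against 0.707 and 0.702 in wild type air. It fell by 2.83 ± 0.75 (adjusted p = 0.0392), and the call was lost under 9 of 14 alternatives, with adjusted p up to 0.373.

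**Figure D2:**
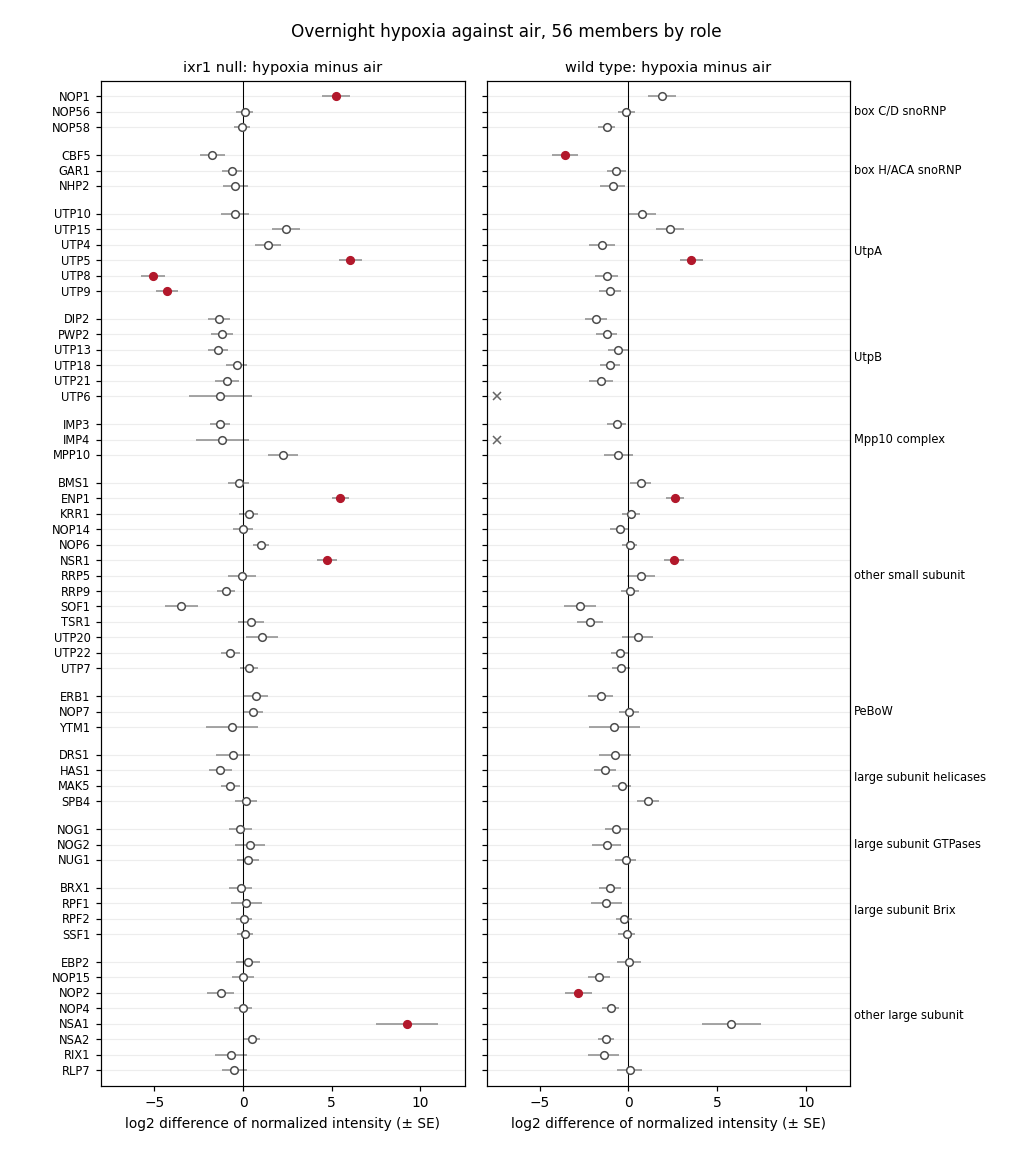
Log2 difference of normalized intensity, hypoxia minus air (horizontal axis, ± SE, 2 arrays in each group), for the 56 genes grouped by role, in arrays labelled ixr1 null (left) and in wild type (right). Filled points passed the adjusted p threshold of 0.05 (7 genes left, 5 right), open points did not, and crosses at the left edge are genes not tested because an array lists them at 0.

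By role, the snoRNP proteins were split in wild type hypoxia. Of the box C/D proteins, NOP58 (YOR310C), a core scaffold, read 0.289 and 0.287 in wild type hypoxia, against 0.755 and 0.601 in wild type air (-1.23 ± 0.47, adjusted p = 0.156). Its partner NOP56 (YLR197W) read 0.971 and 0.695 in hypoxia, against 0.757 and 1.05 in air, with overlapping groups. NOP1 (YDL014W), the fibrillarin of yeast and the RNA methyltransferase of these particles, read 0.466 and 1.56 in wild type hypoxia, against 0.371 and 0.146 in wild type air, and did not pass the test (1.87 ± 0.79, adjusted p = 0.203). Of the box H/ACA proteins besides CBF5, GAR1 (YHR089C) read 0.453 and 0.323 in hypoxia, against 0.561 and 0.666 in air (-0.68 ± 0.56), and NHP2 was at -0.88 ± 0.70.

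All 5 tested subunits of the UtpB complex, which joins the processome after UtpA, were below 0 in wild type hypoxia, with a median of -1.23 and none past the test. DIP2 (YLR129W) was the lowest of them, with 0.102 and 0.162 in hypoxia, against 0.348 and 0.593 in air (-1.82 ± 0.63, adjusted p = 0.110). In UtpA, UTP5 and UTP15 were at 3.55 and 2.34 while UTP4, UTP8 and UTP9 lay between -1.49 and -1.05. The subunits of UtpA thus covered a wide range, on both sides of 0. In the Mpp10 complex, which binds the U3 snoRNA, MPP10 (YJR002W) was at -0.57 ± 0.82 and IMP3 at -0.66 ± 0.55, and IMP4 could not be tested. Among the 13 other small subunit factors the median was 0.07, from -2.73 for SOF1 to 2.62 for ENP1. RRP5, needed for both subunits, was at 0.72 ± 0.79, and neither it nor SOF1 passed the test (adjusted p = 0.0989 for SOF1).

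Large subunit factors lay below 0 in most cases. In the PeBoW complex, named for the human relatives of its subunits, ERB1 (YMR049C) read 0.448 and 0.705 in wild type hypoxia, against 1.42 and 1.93 in wild type air (-1.56 ± 0.70, adjusted p = 0.226). NOP7 (YGR103W) of the same complex read 0.487 and 0.394 in hypoxia, against 0.406 and 0.444 in air, with overlapping groups, and YTM1 was at -0.79 ± 1.42. The 4 Brix domain proteins and the 3 GTPases were all below 0, with medians of -0.66 and -0.68. The helicase HAS1 (YMR290C) was at -1.31 ± 0.64, the GTPases NOG2 and NOG1 at -1.23 ± 0.82 and -0.68 ± 0.64, and the Brix protein BRX1 at -1.04 ± 0.64, none past the test. NOP15 (YNL110C), an RNA-binding protein of the precursor, was at -1.66 ± 0.62 (adjusted p = 0.138). The helicase SPB4 was above 0 at 1.09 ± 0.63 (adjusted p = 0.380), and NOP7, EBP2 and RLP7 lay between 0.02 and 0.07.

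NSA1 (YGL111W), a component of early large subunit precursors, was the highest of them. It read 2.35 and 3.53 in wild type hypoxia, against 0.0253 and 0.105 in wild type air. The hypoxia arrays were far above both air arrays, yet the difference of 5.80 ± 1.67 missed the threshold (adjusted p = 0.0543), and its SE was the largest of the 54 genes. That SE also holds the spread of arrays outside this contrast, such as the wild type shift arrays, on which NSA1 read 0.0542 and 0.000575. Of all 4969 tested probes, 96 (1.93%) were over 16-fold higher in wild type hypoxia, and NSA1 was the single member among them.

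In the arrays labelled ixr1 null, the same contrast gave more extreme values for a few genes, and the rest moved in both directions. The quartiles of the 56 differences were -0.77 and 0.40, against -1.23 and 0.07 in the wild type. All 6 UtpB subunits lay below 0, with a median of -1.23. SOF1 and UTP15 were at -3.48 and 2.41, neither past the test. By limma 14 of the 56 genes (25%) had an unadjusted p under 0.05, where 23.5% of all probes did. Of 56 genes tested, NOP1, ENP1, NSR1, UTP5 and NSA1 rose and UTP8 and UTP9 fell. These 7 of 56 are close to the background, in which 12% of all 5505 tested probes were called (6.41% higher and 5.58% lower). The median of the 56 genes was -0.06, against -0.20 over all probes, and on the deposited scale and with arrays centred on their medians it was 0.15 and 0.05, so no common direction can be given. Both hypoxia arrays were above both air arrays for 12 genes (21.4%), where 25.4% of all probes were, and below both for 16 (28.6%), where 31.5% were.

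The 5 genes that rose were all brighter on both ixr1 null hypoxia arrays than on any array outside hypoxia. NSA1 read 13.4 and 8.80 in ixr1 null hypoxia, against 0.0138 and 0.0230 in ixr1 null air (9.25 ± 1.74, adjusted p = 0.00853). Its air values are under the 10th percentile of positive values, so its fold is not fixed by these arrays. UTP5 read 8.74 and 14.2 in ixr1 null hypoxia, against 0.0993 and 0.282 in ixr1 null air, and rose 66.6-fold (6.06 ± 0.66, adjusted p = 0.00057). ENP1 read 4.49 and 5.45 in ixr1 null hypoxia, against 0.108 and 0.112 in ixr1 null air, and rose 45.0-fold (5.49 ± 0.50, adjusted p = 0.00027). In both genes the 2 hypoxia arrays were more than an order of magnitude above both air arrays.

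NOP1 read 4.81 and 5.22 in ixr1 null hypoxia, against 0.0812 and 0.217 in ixr1 null air, and rose 37.8-fold (5.24 ± 0.81, adjusted p = 0.00472). NSR1 read 5.03 and 7.73 in ixr1 null hypoxia, against 0.153 and 0.355 in ixr1 null air, and rose 26.8-fold (4.74 ± 0.57, adjusted p = 0.00154). NOP1, ENP1, NSR1 and UTP5 kept these calls under all 14 alternatives, including every scaling and every left-out array. NSA1 lost its call without ixr1 null air array A or without ixr1 null hypoxia array A (adjusted p up to 0.0603). These 5 were among 175 probes (3.18% of those tested) that were over 16-fold higher in ixr1 null hypoxia.

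UTP8 and UTP9, 2 further subunits of UtpA, moved the other way from UTP5. UTP8 (YGR128C) read 0.00637 and 0.00495 in ixr1 null hypoxia, against 0.367 and 0.0983 in ixr1 null air, and fell by 5.08 ± 0.67 (adjusted p = 0.00239). UTP9 (YHR196W) read 0.0583 and 0.0287 in ixr1 null hypoxia, against 0.808 and 0.815 in ixr1 null air, and fell by 4.31 ± 0.62 (adjusted p = 0.00239). The hypoxia values of both lie under the 10th percentile, and the fall of UTP8 lost its call when zeros and dim values were set to a floor (adjusted p = 0.463). RIX1, a large subunit factor and the neighbour of UTP9 on the same strand, was at -0.68 in this contrast and at -1.40 in the wild type, where UTP9 was at -1.05.

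**Figure D3:**
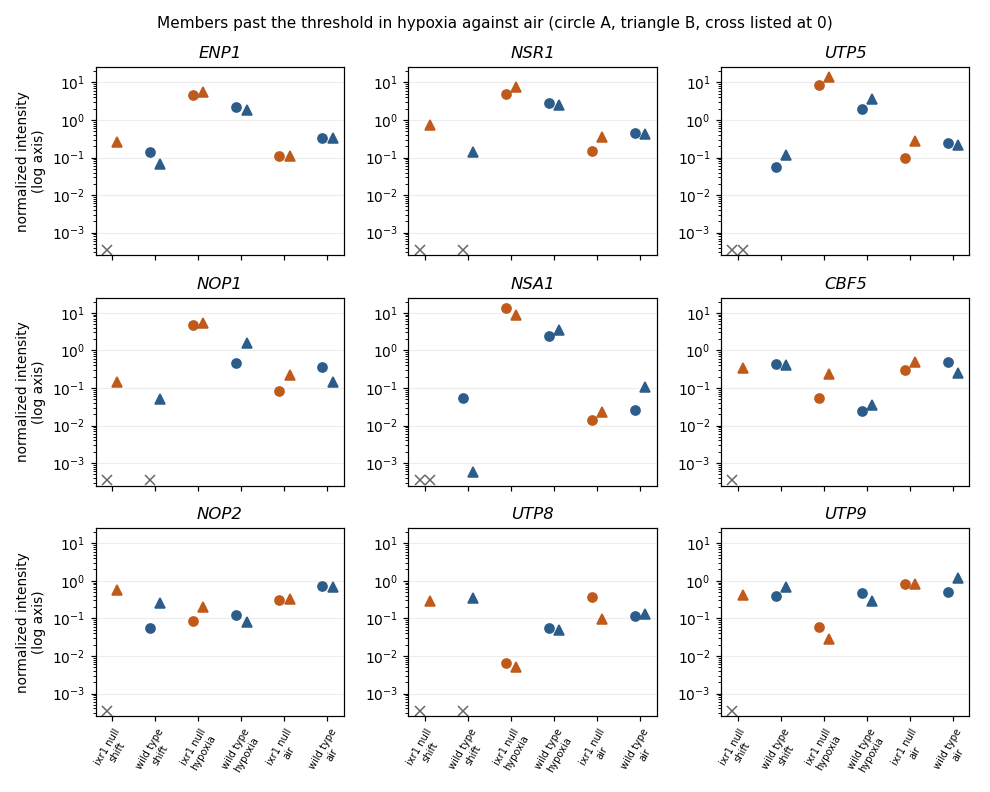
Normalized intensity (vertical log axis) of the 9 genes past the threshold in hypoxia against air in either genotype, on each array of the 6 groups (horizontal axis, circles for array A, triangles for array B, crosses for values listed at 0). ENP1, NSR1, UTP5 and NSA1 are brightest on the 4 hypoxia arrays, and, among values above 0, UTP8 is dimmest on the 2 ixr1 null hypoxia arrays and CBF5 on the wild type hypoxia arrays.

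NOP1, ENP1, NSR1, UTP5 and NSA1 are a set named after its values were seen, as the genes that rose in ixr1 null hypoxia. Leaving them out thus removes every call that rose there and cannot raise the median. The remaining calls were the 2 genes that fell in each genotype. The median of the other genes was then -0.68 over 49 tested in the wild type and -0.16 over 51 in the arrays labelled ixr1 null. Both contrasts use their own air arrays, so the 2 genotypes share no sample in them.

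After the shift to nitrogen, no gene passed the test in the wild type, and 36 of the 43 tested genes lay below air. Of the 56 genes, 13 were listed at 0 on shift array A and were not tested. By limma 0 of the 43 tested genes passed (0.749% of all 4672 tested probes did), and 12 of the 43 (27.9%) had an unadjusted p under 0.05, where 15.8% of all probes did. With the array letters as a block within each condition, 4 genes passed, where 5.42% of all probes did. The median log2 difference from air was -0.81, against 0.04 over all probes, and 36 of 43 genes (83.7%) were below 0, where 48.5% of all probes were. Counting zeros as lowest, both shift arrays were below both air arrays for 27 of the 56 genes (48.2%), where 18.6% of all probes were, and above both for MAK5 alone (1.79%), where 21.2% were. Relative to all probes the median lay between -0.93 and -0.85 on the 4 scalings, of which the deposited and the median-centred must give the same value.

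**Figure D4:**
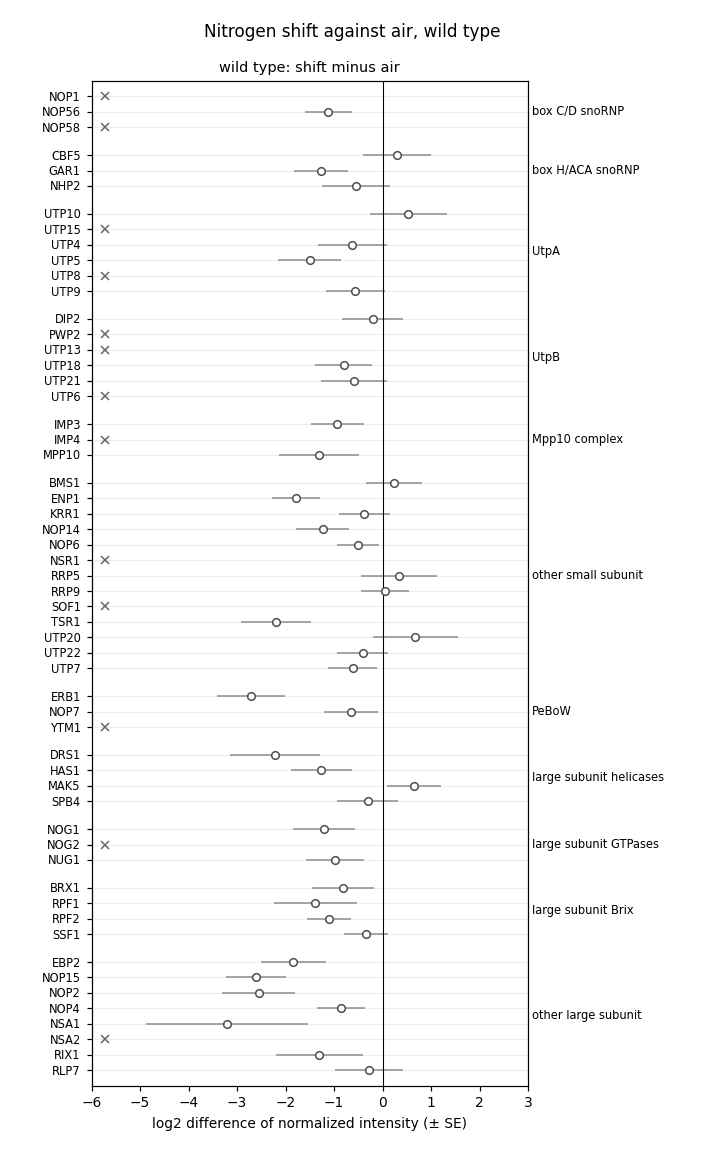
Log2 difference of normalized intensity, wild type shift minus wild type air (horizontal axis, ± SE, 2 arrays in each group), for the 56 genes grouped by role. Open points are the 43 tested genes, of which 36 lie left of 0 and none passed the threshold, and crosses at the left edge are the 13 genes listed at 0 on shift array A.

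Among the tested genes, the lowest differences after the shift were those of large subunit factors. The 13 genes left out, at 0 on shift array A, were mostly snoRNP and small subunit genes, and went both ways on array B. There NOP1, NOP58, NSR1, PWP2 and NSA2 were below both air arrays. UTP6, UTP8, UTP13, UTP15 and IMP4 were above both, and the others lay between. NOP1 read 0 and 0.0509 in the shift, against 0.371 and 0.146 in air. NSR1 read 0 and 0.145, against 0.462 and 0.428, while UTP8 read 0 and 0.358, against 0.113 and 0.132. NOP15 read 0.0595 and 0.0918 in the wild type shift, against 0.500 and 0.401 in wild type air (-2.60 ± 0.62, adjusted p = 0.112). NOP2 read 0.0547 and 0.264 in the shift, against 0.707 and 0.702 in air (-2.55 ± 0.75, adjusted p = 0.161). ERB1 read 0.118 and 0.548 in the shift, against 1.42 and 1.93 in air (-2.70 ± 0.70, adjusted p = 0.121). In each of these genes both shift arrays were below both air arrays. The helicase DRS1 (YLL008W) read 0.177 and 1.96 in the shift, against 2.74 and 2.72 in air (-2.21 ± 0.92, adjusted p = 0.290), and its 2 shift arrays lay an order of magnitude apart. All 7 tested members among the other large subunit factors were below 0, with a median of -1.84, and NSA1 was lowest at -3.21 ± 1.68. NSA1 read 0.0542 and 0.000575 in the shift, against 0.0253 and 0.105 in air, so the groups overlapped. All of these values but the 0.105 lie under the 10th percentile of positive values, so the size of its difference is poorly fixed.

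Among 11 tested members of the other small subunit factors the median was -0.41. ENP1 read 0.141 and 0.0664 in the wild type shift, against 0.339 and 0.329 in wild type air (-1.79 ± 0.50, adjusted p = 0.141). UTP5 read 0.0567 and 0.114 in the shift, against 0.240 and 0.215 in air (-1.50 ± 0.65), so both genes, which rose in hypoxia, lay below air on both shift arrays. The hypoxia and shift contrasts share the 2 air arrays. NOP56 was at -1.11 ± 0.48, GAR1 at -1.27 ± 0.55, RPF2 at -1.10 ± 0.45, NOG1 at -1.21 ± 0.64 and NOP7 at -0.66 ± 0.56, none past the test. UTP18 and IMP3 were at -0.80 ± 0.58 and -0.93 ± 0.54. CBF5, which fell in hypoxia, read 0.445 and 0.421 in the shift, against 0.483 and 0.256 in air, with overlapping groups (0.30 ± 0.71).

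The 2 wild type shift arrays differed, and the calls depended on which was used. Counting zeros as lowest, 42 of the 56 genes were higher on B than on A, where 50.9% of all probes were. Genes of a stress and reserve carbohydrate list were a median of 2.11 log2 units lower on B than on A (32 genes with a value on both), and the part of that difference in these results was not tested. Compared singly with the 2 air arrays, 43 genes were below both on shift array A (36.8% of all probes were) and 33 were on array B (32.9% of all probes). With 1 array left out, the remaining shift array is assumed to vary like the arrays of the other groups. Without array B, 4 genes passed the test, ERB1, DRS1, NOP2 and TSR1, where 7.12% of all probes did. Without array A, NSA1 alone passed, at -6.49 (adjusted p = 0.0152) and on a shift value of 0.000575, where 1.75% of all probes did, and the median over 54 tested genes was -0.49.

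**Figure D5:**
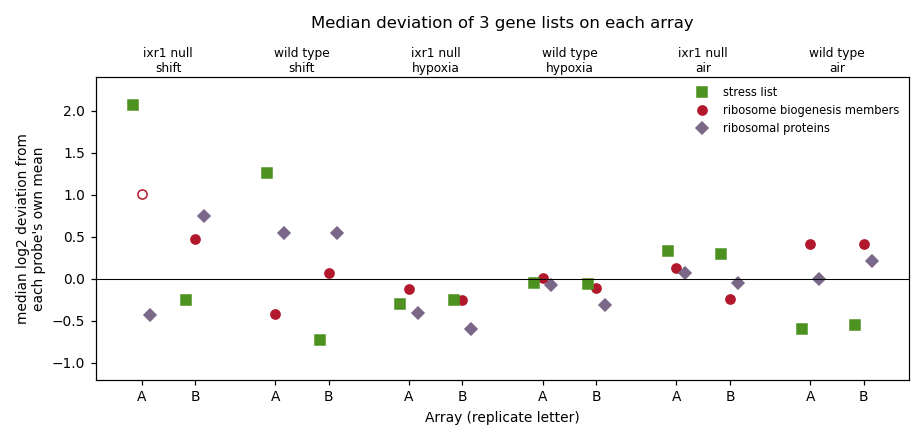
Median log2 deviation of 3 gene lists from each probe's own mean over the arrays on which it has a value (vertical axis), for the 12 arrays in their 6 groups (horizontal axis). Squares are the stress list, circles the 56 ribosome biogenesis genes and diamonds ribosomal protein genes, open where few genes of a list have a value, as for the 8 biogenesis genes on ixr1 null shift array A. The stress list lies higher on array A than on array B in both shift groups.

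The wild type shift was also set against wild type hypoxia, with which it shares low oxygen but not its duration or the supplements. Of 43 genes tested, CBF5 rose and ENP1, UTP5 and NSA1 fell. These 4 are close to the background, in which 9.03% of all 4893 tested probes were called. CBF5 read 0.445 and 0.421 in the shift, against 0.0246 and 0.0353 in hypoxia (3.88 ± 0.71, adjusted p = 0.00910). UTP5 fell by 5.05 ± 0.65 (adjusted p = 0.00159) and ENP1 fell by 4.41 ± 0.50 (adjusted p = 0.000977), and both kept these calls under all 16 alternatives. NSA1 read 0.0542 and 0.000575 in the shift, against 2.35 and 3.53 in hypoxia, and fell by 9.01 ± 1.69 (adjusted p = 0.00990), with both shift values under the 10th percentile. CBF5 and NSA1 each lost the call under 3 of 16 alternatives (adjusted p up to 0.128 and 0.0822). The median of the 43 genes was -0.27, against 0.04 over all probes, and 0.12 without the shift A arrays, so it gives no stable direction.

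For the arrays labelled ixr1 null, the shift could hardly be measured in these genes. Only NOP14, EBP2, NHP2, MAK5, NOP6, RIX1 and TSR1 had a value on both arrays. They could be tested because they were above 0 on array A, so the filter favours high shift values, and every test that uses these arrays is given as a description of the 7 genes. Against ixr1 null air, array A was below both air arrays for 50 of the 56 genes, 48 of them at 0, where 63.5% of all probes were. Array B was below both for 19 and above both for 28 genes on the normalized scale, and for 33 and 15 on the deposited scale, so its direction depends on the scaling. Of the 7 genes tested, NOP6 (YDL213C), a small subunit factor, read 0.399 and 0.383 in the shift, against 0.0873 and 0.0963 in air, with a difference of 2.09 ± 0.39 (adjusted p = 0.0255), where 1.97% of 2228 probes were called. Its sign turned on the 3 other scalings (-0.15, -0.65 and -0.32), so no direction can be given for NOP6.

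Against ixr1 null hypoxia, 3 of the same 7 genes were past the threshold and higher in the ixr1 null shift, where 20.2% of 2229 probes were called. The filter that kept them favours this direction. NOP14 (YDL148C), of the small subunit processome, read 0.627 and 0.574 in the shift, against 0.113 and 0.258 in hypoxia (1.81 ± 0.52, adjusted p = 0.0353). EBP2 (YKL172W), a large subunit factor, read 0.766 and 0.640 in the shift, against 0.171 and 0.168 in hypoxia (2.05 ± 0.64, adjusted p = 0.0472). MAK5 (YBR142W), a large subunit helicase, read 0.599 and 0.269 in the shift, against 0.122 and 0.128 in hypoxia (1.69 ± 0.52, adjusted p = 0.0447). These 3 calls were lost on each of the 3 other scalings, where MAK5 was below 0 on 2 of them (-0.35 and -0.0096).

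Between genotypes in air, no gene passed the test, but the arrays labelled ixr1 null lay lower for most of them. By limma 0 of 54 tested genes passed (0% of 5043 probes did), and 7 had an unadjusted p under 0.05, all lower in ixr1 null, where 7.57% of all probes did. The median was -0.44, against 0.08 over all probes. Relative to all probes it lay between -0.52 and -0.49 on the 4 scalings, of which the deposited and the median-centred must give the same value. The scalings moved the median of all probes itself between 0.08 and 0.39. Both ixr1 null arrays were below both wild type arrays for 24 of the 56 genes (42.9%), where 19.5% of all probes were, and above both for 3 (5.36%), where 24.2% were. NOP6 read 0.0873 and 0.0963 in ixr1 null air, against 0.251 and 0.227 in wild type air (-1.38 ± 0.43, adjusted p = 0.513). NOP14 read 0.170 and 0.176 in ixr1 null air, against 0.572 and 0.510 in wild type air (-1.64 ± 0.56, adjusted p = 0.533). In both genes the replicates lay close together and the groups did not overlap.

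The box C/D proteins, the PeBoW complex, the GTPases and the Brix proteins were below 0 for each tested member, with medians of -0.81, -0.59, -0.88 and -1.19. UtpA and UtpB were not, with medians of 0.22 and 0.13. The stress list deviated by a median of 0.33 and 0.30 on the ixr1 null air arrays, against -0.59 and -0.55 on the wild type air arrays. The part of that difference in the ribosome biogenesis genes was not tested.

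In hypoxia the genotypes were closer in the median, and 0 of 55 tested genes passed by limma (0.279% of 5379 probes did, and 7 of the 55, or 12.7%, had an unadjusted p under 0.05, where 14.3% of all probes did). The median was 0.10, against -0.16 over all probes. NOP1, ENP1, NSR1, UTP5 and NSA1 were each brighter on both ixr1 null hypoxia arrays than on either wild type hypoxia array, with differences of 1.24 to 2.56 on the log2 scale, with adjusted p between 0.217 and 0.645. UTP9 was at -3.19 ± 0.62 (adjusted p = 0.0838). After the shift, 0 of the 7 tested genes passed by limma (0% of 2231 probes did). Of the 7, 3 had an unadjusted p under 0.05, where 7.62% of all probes did. With the letters as a block within condition 1 passed, where 0.896% of all probes did. These 7 were kept by the filter that favours high ixr1 null shift values.

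Whether hypoxia acted differently on these genes in the 2 genotypes was tested as an interaction, the hypoxia difference in ixr1 null minus that in wild type. By limma 0 of 54 genes passed (0.145% of 4844 probes did), and 11 (20.4%) had an unadjusted p under 0.05, where 15.3% of all probes did. The smallest p belonged to ENP1, with 2.87 ± 0.71, and UTP8, with -3.85 ± 0.93 (adjusted p = 0.129 for both). The interaction was above 0 for 41 of the 54 genes (75.9%), where 42.6% of all probes were, with a median of 0.47 against -0.24. Since it contains the air difference between genotypes with its sign turned, this is not separate from the lower ixr1 null air values. Other ribosome assembly factors, described below, had a median of -0.08, with 44 of 84 tested below 0, where 57.4% of all probes were. They were split, with a median of 0.16 for large subunit factors (17 of 43 below 0) and -0.57 for small subunit factors (27 of 41). Between genotypes in air their median was -0.47 (57 of 88 below 0), near the -0.44 of the biogenesis genes. For the shift, 0 of the 7 tested genes passed by limma (0% of 2178 probes did). Of the 7, 4 had an unadjusted p under 0.05, where 9.78% of all probes did. With the letters as a block within condition 2 passed, where 1.19% of all probes did. The filter on ixr1 null shift array A favours high values here too, so these counts give no direction.

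Other ribosome assembly factors had 95 probes. In wild type hypoxia 5 rose and 4 fell of 88 tested (10.2%, where 11.9% of all probes were called), with a median of -0.38 against 0.01 over all probes. UTP11 and SLX9, both of the small subunit pathway, rose 32.7-fold and 29.9-fold (5.03 ± 0.51, adjusted p = 0.000291, and 4.90 ± 0.56, adjusted p = 0.000483). RCL1, a processome protein, fell by 3.49 ± 0.76 (adjusted p = 0.0118) and SPB1, a large subunit methyltransferase, by 2.70 ± 0.54 (adjusted p = 0.0126). In the arrays labelled ixr1 null, 3 rose, SLX9 and UTP11 among them, and 3 fell, RCL1 and RSA1 among them, of 88 tested (6.82%, where 12% of all probes were called), with a median of -0.42 against -0.20 over all probes. In the wild type shift the median over 77 tested was -0.76.

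The lists of polymerase and regulator genes are short, and their counts are read beside the 11.9% (wild type) and 12% (ixr1 null) of all probes called in hypoxia. Of 14 tested genes of RNA polymerase I and its factors, UAF30, of the upstream activating factor, rose in wild type hypoxia (4.07 ± 0.90, adjusted p = 0.0199) and RRN10, of the same factor, rose in ixr1 null hypoxia (3.09 ± 0.73, adjusted p = 0.0216). The median of 12 tested RNA polymerase III genes was -0.08 in wild type hypoxia and that of 12 growth regulators -0.07, without a call. Of 125 ribosomal protein probes, whose genes are known to respond to growth along with the biogenesis factors, 2 rose and 7 fell of 117 tested in wild type hypoxia (7.69%, under the 11.9% of all probes, with a median of -0.25). In the wild type shift their median was 0.48 over 114 tested, on the other side of 0 from the -0.81 of the biogenesis genes, with RPL29 alone past the test.

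SSF1, a Brix protein, has a close copy in SSF2, and cross-hybridisation between them was not tested. SSF1 read 0.515 and 0.461 in wild type hypoxia, against 0.493 and 0.554 in wild type air. SSF2 read 0.561 and 0.405 in wild type hypoxia, against 0.267 and 0.303 in wild type air, so that the groups overlapped for SSF1 and not for SSF2. RPF1 and GAR1 are neighbours on opposite strands, and stood at -1.24 and -0.68 in wild type hypoxia and at -1.38 and -1.27 in the wild type shift.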

How the data were processed

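Per the labels, first-strand cDNA primed with oligo-dT and labelled with 32P was hybridised to 1-colour arrays. The deposited table gives 1 linear intensity per probe and array, with array means close to 1 and exact zeros, and no source used here gives the scaling or the rule for zeros. All 12 arrays were quantile normalized with zeros included, zeros were then set to missing, and values were taken to log2. A probe was tested where all arrays of the groups compared had a value. Group means over the 12 arrays were fitted with limma 3.58.1 in R 4.3.3, with Benjamini-Hochberg adjustment over all tested probes of each of 11 comparisons and a threshold of 0.05. The fit was tested on simulated data. With 2 arrays against 2, an exact permutation test cannot go below 0.333, so none is given. The labels do not say whether A and B are separate cultures, and p-values then measure the spread between arrays, which may be technical.

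The 56 members, their roles and the gene lists were chosen with earlier results of these data known. Named are members past the threshold in any comparison, the member of smallest p of each role group in wild type hypoxia and in the wild type shift, and a set of core factors. SOF1, SPB4, RLP7, NHP2, UTP4, UTP6, UTP13, UTP15, PWP2, IMP4, NSA2, RIX1, RPF1, SSF1 and TSR1 were added after their values were seen. Names come from RefSeq R64 locus tags, which matched 5571 of 5974 probes, and 4 list symbols without a match were left out. Deviations of same-lettered arrays correlated between the genotypes within each condition, with r = 0.648 for the shift, 0.189 for hypoxia and 0.257 for air. Over all pairs of groups 6 of 15 were above 0.1. Across conditions, ixr1 null air correlated with ixr1 null hypoxia (r = 0.298), wild type hypoxia (r = 0.196) and the ixr1 null shift (r = 0.102). The letters thus went together within each condition, and across conditions for these pairs of groups only. Alternatives were other scalings, a floor for zeros, a filter on dim probes, other variance settings, a replicate block, and left-out arrays. Intensities without counts give no sampling interval, and the number of arrays limits the precision.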

Additional observations from a re-analysis of the deposited data

How the results depend on the processing

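Of 339 summary values recomputed under alternatives, 233 kept their size and 106 moved, most of them in the ixr1 null shift. The wild type hypoxia median moved to -0.50 on the deposited scale, and its 5 called genes to 3 with zeros floored. For wild type shift against hypoxia the median was -0.79 on the deposited scale, -0.54 with arrays centred on medians and -0.55 with quantiles over positive values. It was 0.12 without the shift A arrays and -0.64 without the shift B arrays. Without the shift A arrays the wild type shift had 2 called genes and a median of -0.49, and without the B arrays 5. The ixr1 null hypoxia median was 0.15 on the deposited scale and 0.055 with centred arrays. The ixr1 null against wild type median in air was -0.10, -0.32 and -0.31 on the deposited, centred and positive-quantile scales, and 10 genes lay above on the deposited scale against 3. In hypoxia that median was 0.41 on the deposited and 0.23 on the positive-quantile scale. A trended robust variance gave 1 call there, and a fit of the compared arrays alone gave 1 for the genotype by hypoxia interaction.

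In the ixr1 null shift against air the median of the 7 genes (1.18) was -0.15, -0.65 and -0.32 on the deposited, centred and positive-quantile scales, and -0.57 with zeros floored. The values of NOP6 on those scales were the same -0.15, -0.65 and -0.32. Its 1 called gene became 0 on those 3 scales, with the compared arrays alone, with a trended robust variance and with variance moderation over all probes. The median was 0.56 without the shift A arrays and 1.63 without the B arrays. Against ixr1 null hypoxia the median (1.08) was -0.32, -0.72 and -0.65 on those scales, -0.52 with zeros floored, 0.77 without the A arrays and 1.49 without the B arrays. The 3 calls there became 0 on the 3 scales, with the compared arrays alone and with both variance settings, and 6 with zeros floored. MAK5 turned to -0.35 and -0.0096 on the centred and positive-quantile scales. Between genotypes after the shift the median (1.22) was -0.42, -1.31 and -0.98 on the 3 scales, -0.17 with zeros floored and 0.51 without the A arrays. The interaction with the shift (2.60) was 0.56, -0.11 and 0.22 on the 3 scales, 0.086 with zeros floored, 1.21 without the A arrays and 2.30 without the B arrays. The cause of these moves was not tested.

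Leaving out 1 array at a time leaves 1 array in a group, so only medians are given here. The medians ran from -0.70 to -0.47 in wild type hypoxia, -0.93 to -0.49 in the wild type shift, -0.64 to 0.12 for wild type shift against hypoxia, -0.29 to 0.14 in ixr1 null hypoxia, 0.56 to 1.63 in the ixr1 null shift against air and 0.75 to 1.49 against hypoxia. Between genotypes they ran from -0.52 to -0.38 in air, -0.12 to 0.22 in hypoxia and 0.41 to 1.35 after the shift, and the interactions from 0.34 to 0.59 with hypoxia and 1.43 to 2.67 with the shift.

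A paired fit, with the letters as a replicate block, gave 2 called genes in the ixr1 null shift against air, without a share over all probes to set beside them. A replicate block within condition gave 11 in wild type hypoxia (16.7% of all probes passed) and 4 in the wild type shift (5.42%). Of the 7 genes with ixr1 null shift values, it gave 3 against air (10.6%), 1 between genotypes after the shift (0.896%) and 2 for its interaction (1.19%). The filter that kept those 7 genes favours high shift values. No source states what the letters share.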
